A study of Medicago truncatula with 48 samples.

Results

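The endosperm of Medicago truncatula, a model legume, was compared between the stages S2 and S3 of seed maturation in plants kept at standard temperature. Of the 48 RNA-seq libraries of the series, 4 make this comparison: 2 replicates of endosperm at S2, 26 days after pollination (DAP), and 2 replicates at S3, 36 DAP. All came from the cultivar A17 at a day temperature of 20 °C, and the members were chosen by tissue, stage and temperature alone, so that no measured value entered the choice. S2 lies after the seeds have become tolerant to drying, and S3 is the stage at which longevity, the capacity of dry seeds to survive storage, begins to be acquired. The samples set beside them were endosperm at S1 (17 DAP) and S4 (44 DAP) at the same temperature. Endosperm under heat stress (day temperature of 26 °C from flowering) was sampled at 14, 17, 22 and 28 DAP for S1 to S4. Embryo at S2 and S3 at standard temperature had 3 replicates each. Embryo of the other stages and under heat stress, at the same ages, entered the fit with embryo. Tissue lists also used heat stress embryo and seed coat at S1 and S2 (17 and 26 DAP, under heat stress 14 and 17 DAP). The sources give different night temperatures, and no label says whether replicates came from separate plants, so that the p-values measure only the spread between these samples.

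The endosperm feeds the young embryo, and in the mature legume seed it remains as a thin living layer between the embryo and the seed coat that takes part in the control of germination. During late maturation a seed completes its reserves, closes down much of its metabolism and prepares for the dry state, and the set of stored transcripts is remodelled. Plastids and mitochondria carry genomes of their own. The paper states that mRNA was enriched by rRNA depletion and oligo dT selection, which keeps RNA with a poly(A) tail. Organelle values therefore describe only the RNA that these steps kept. The table holds transcript identifiers without gene names, and 0 of its 44473 identifiers matched the RefSeq gene table of the MtrunA17r5.0-ANR assembly. Changes are therefore described by level, size, chromosome, length and behaviour in other libraries, and no function is given to any identifier.

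The 4 libraries held 17864494 to 18412732 estimated counts each, within the range of 17690405 to 53776178 over the series, so that depth was nearly equal between S2 and S3. The libraries were checked against lists of transcripts defined by level in heat stress and seed coat libraries. An endosperm list of 86 transcripts, at least 20 times higher in endosperm than in the other tissues, summed to 47901 and 47593 CPM (counts scaled to a common library total) at S2 and to 75691 and 83891 CPM at S3, against 84.0 to 114 CPM in embryo and 358 to 368 CPM in seed coat at S2. The seed coat libraries and the heat stress endosperm and embryo libraries of S2 and S3 defined the list, so that the seed coat values are not independent of it. The endosperm and embryo values at standard temperature did not enter its definition. A seed coat list of 281 transcripts summed to 809 and 780 CPM at S2 and to 847 and 329 CPM at S3, against 84330 to 89787 CPM in seed coat at S2. No transcript met the same limit for an embryo list, and 24 did at 5 times, a limit chosen after seeing the data. These summed to 3365 and 3902 CPM at S2 and to 6601 and 1933 CPM at S3, against 391974 to 436533 CPM in embryo at S2. Replicate 1 of S3 was thus above replicate 2 in both lists, for 209 of the 281 seed coat transcripts and 22 of the 24 embryo transcripts, and none of the transcripts of either list was at 0 in all 4 libraries. The part of other tissues in the comparison was not tested. Without replicate 1 of S3 the comparison called 7151 transcripts, and without replicate 2 it called 7760, against 9175 with all libraries.

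Between S2 and S3 about as many transcripts rose as fell. Of 26400 transcripts tested, 9175 (34.8%) differed at an adjusted p below 0.01 in the quasi-likelihood test of edgeR, with p-values adjusted by the Benjamini-Hochberg method, 4949 (18.7%) higher at S3 and 4226 (16.0%) lower. Adjusted p-values are taken over all transcripts tested, and changes are given as the log2 of the ratio of S3 to S2 after scaling by the trimmed mean of M-values (TMM), which assumes that most transcripts do not change. The median log2 fold change over all transcripts was -0.02, with quartiles of -0.53 and 0.48. It was 1.00 among the transcripts that rose (quartiles 0.61 and 1.85) and -1.01 among those that fell (quartiles -1.98 and -0.56). An absolute log2 fold change of at least 1 was reached by 2473 (9.37%) of the transcripts tested in the calls upward and by 2130 (8.07%) in the calls downward. Because these were bulk samples, fewer cells of a type and less RNA per cell cannot be told apart.

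**Figure D1:**
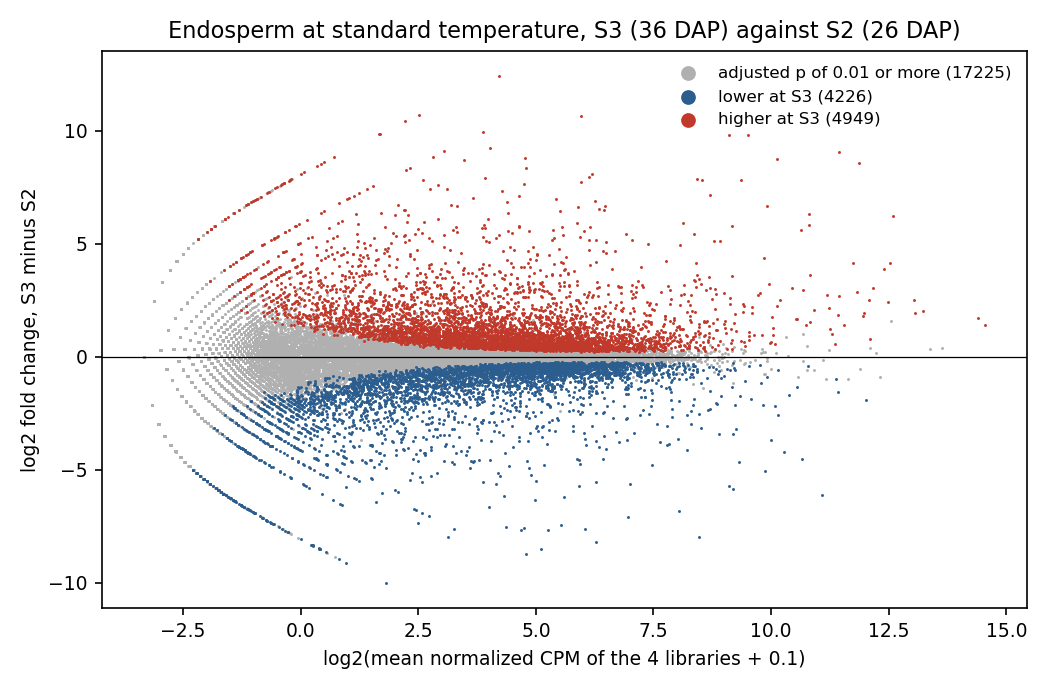
Log2 fold change from S2 to S3 against the log2 of the mean normalized CPM of the 4 libraries, one point per transcript tested, with calls higher at S3 in red, calls lower in blue and the other transcripts in grey. The 4949 and 4226 calls lie on both sides of 0 over the whole range of levels, and the curved rows at low level are transcripts with 0 or few counts in one stage, whose fitted ratio is no measure of size.

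The split between higher and lower depended on scaling. With library size as the only scaling, the median of all transcripts moved by -0.39 on the log2 scale, and 12074 transcripts were called, of which 22.9% were higher, against 53.9% of the calls with TMM. All 4226 transcripts that fell were also called lower on that scale, 2184 of the 4949 that rose lost the call, and 0 changed direction. With DESeq2's median-ratio scaling in the same test, 9231 were called and 49.4% of them were higher. Changes below are relative to the TMM scale.

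Groups without overlap were more frequent than calls, with 19333 of 26400 transcripts (73.2%). The normalized CPM of both S3 replicates lay above both S2 replicates for 9366 transcripts (35.5%) and below them for 9967 (37.8%). All but 1 of the 4949 transcripts that rose and all 4226 that fell were among them, as were 10159 of the 17225 transcripts that were not called. The smallest change called was 0.22 on the log2 scale, and the median standard error was 0.14 among calls and 0.24 among the other transcripts. Replicates differed with a median SD of 0.0841 on the log2 CPM scale at S2 and of 0.143 at S3 (n = 2 each).

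About as many calls lay below an absolute log2 fold change of 1 as above it. An absolute log2 fold change below 1 was found for 2476 (50.0%) of the transcripts that rose and 2096 (49.6%) of those that fell. Changes of 1 to 2 were found for 1356 and 1086 transcripts, of 2 to 4 for 806 and 724, of 4 to 8 for 283 and 304, and of 8 or more for 28 and 16. Size alone did not make a call, since 1834 transcripts with changes of 1 to 2 and 910 with changes of 2 to 4 were not called.

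The counts themselves shifted more than the number of transcripts did. Transcripts that rose took 23.8% and 23.8% of the counts in the S2 libraries and 53.8% and 51.6% in the S3 libraries. Transcripts that fell took 28.2% and 28.1% at S2 and 10.1% and 10.9% at S3. These shares describe how far the choice by call carries through the libraries and are no test. The transcripts that rose with an absolute log2 fold change of at least 1 went from 11.0% in both S2 libraries to 39.0% and 37.2% at S3. The S1 and S4 libraries of the same temperature lay outside the contrast, although they were part of the fit behind the calls. In them, transcripts that rose took 13.6% and 13.9% of the counts at S1 and 63.9% and 63.5% at S4. Those that fell took 40.0% and 39.1% at S1 and 6.91% and 7.01% at S4. The shares thus kept their order over the 4 stages at standard temperature, with the S1 values on the outer side of S2 and the S4 values on the outer side of S3.

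**Figure D2:**
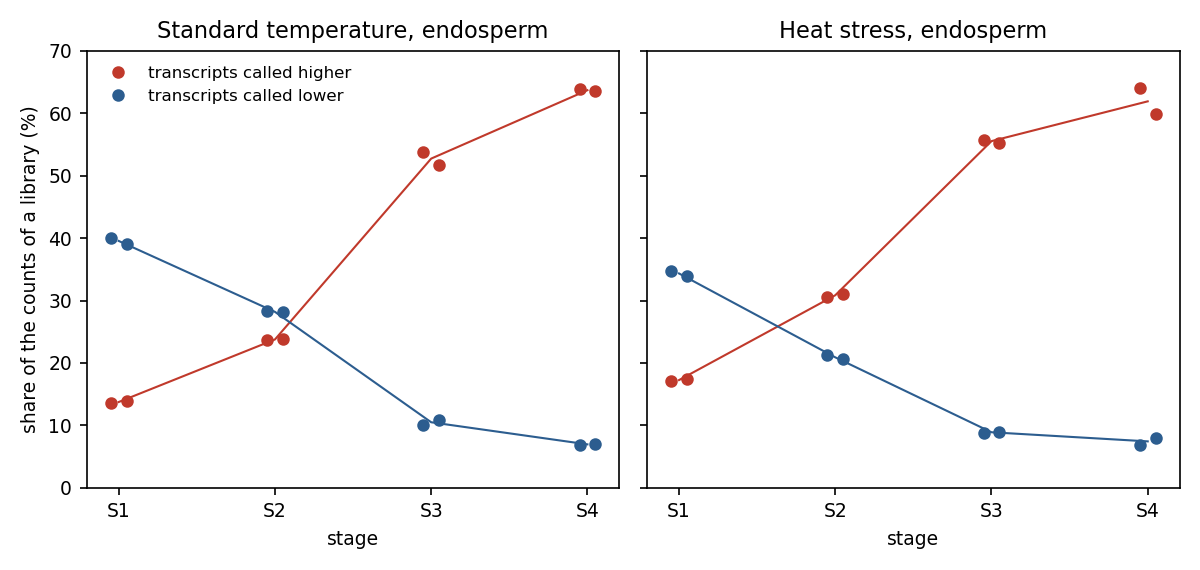
Share of the counts of each endosperm library, in percent, taken by the 4949 transcripts called higher (red) and the 4226 called lower (blue) between S2 and S3 at standard temperature, by stage, with one point per library and lines through the means of 2 replicates. At standard temperature the red points move from 13.6% and 13.9% at S1 to 63.9% and 63.5% at S4, and under heat stress from 17.2% and 17.4% to 64.0% and 59.8%.

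The endosperm transcriptome became more concentrated. At least 1 count was found for 31214 and 31236 transcripts at S2 and for 29516 and 29222 at S3. The 10 most abundant transcripts took 8.88% and 8.69% of the counts at S2 and 14.96% and 16.04% at S3, and the first alone took 1.56% and 1.55% against 3.04% and 3.24%. A share of 50% of the counts was reached with 1024 and 1022 transcripts at S2 and with 430 and 444 at S3. In each of these measures the S2 and S3 libraries did not overlap. With 2 libraries against 2 a two-sided exact permutation test of a single value cannot go below p = 0.333, and none is given.

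The most abundant transcripts were in part exchanged. The S2 and S3 lists of the 10 most abundant transcripts by mean CPM on library size alone shared 4 members. Those of 100 shared 59, and those of 500 shared 332. Among the first 10 at S3, 8 were called higher, 0 lower and 2 were not called. Among the first 100 at S3, 70 were called higher and 5 lower, while among the first 100 at S2, 29 were called higher and 37 lower. Being abundant at S3 favours a rise by construction, so that these counts describe the turnover and do not test it. The first 100 at S3 took 19.3% of the counts in both S2 libraries and 36.8% and 37.0% at S3. One transcript of 323 nt on chromosome 1, which was seventh at S3, had rank 730 at S2. Its normalized CPM was 155 and 173 at S2 and 12230 and 12147 at S3, a log2 fold change of 6.22.

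Of the transcripts that rose with an absolute log2 fold change of at least 1 and without overlap, MtrunA17_Chr6g0482951 had the smallest adjusted p. It lies on chromosome 6 by its identifier and is 1900 nt long. Its normalized CPM was 18.5 and 18.8 at S2 and 2110 and 1702 at S3, so that both S3 libraries lay far above both S2 libraries. The log2 fold change was 6.68 ± 0.14 (SE, edgeR quasi-likelihood, adjusted p = 2.666e-12). The libraries outside the comparison gave 0.988 and 1.17 at S1 and 2856 and 2848 at S4, so that the libraries of S1 lay below those of S2 and the libraries of S4 above those of S3. It moved from rank 8119 at S2 to rank 52 at S3. In embryo at standard temperature it stood at 28.7 to 36.5 CPM at S2 and at 21.6 to 27.2 CPM at S3. Some of its counts were not whole, as Salmon gives where reads are shared with similar transcripts, and its level is uncertain to that extent.

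MtrunA17_Chr1g0185301, 1684 nt on chromosome 1, was the most abundant of the transcripts that rose with a log2 fold change of at least 1. It had rank 1 at both stages. Its normalized CPM was 13133 and 13073 at S2 and 33887 and 35412 at S3. The log2 fold change was 1.40 ± 0.13 (SE, edgeR quasi-likelihood, adjusted p = 9.672e-07), and the stages did not overlap. At S1 it stood at 101 and 91.1 and at S4 at 24276 and 23206, so that S3 was its highest stage at standard temperature. Its counts were whole in all 4 libraries.

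MtrunA17_Chr1g0198401, 819 nt on chromosome 1, had the smallest adjusted p among the transcripts that fell by the same rule. Its normalized CPM was 52.8 and 53.1 at S2 and 3.99 and 4.04 at S3, with replicates close together at both stages. The log2 fold change was -3.72 ± 0.09 (SE, edgeR quasi-likelihood, adjusted p = 4.080e-12). At S1 it stood at 293 and 296, and at S4 at 0.193 and 0.127, which were 3 and 2 counts. Each stage at standard temperature thus lay below the one before it. In the embryo libraries it had 0 to 6 counts.

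MtrunA17_Chr6g0458551, 367 nt on chromosome 6, was the most abundant of the transcripts that fell with an absolute log2 fold change of at least 1. Its normalized CPM was 6702 and 6351 at S2 and 1242 and 2197 at S3, so that the stages did not overlap but the S3 replicates lay apart. The log2 fold change was -1.92 ± 0.45 (SE, edgeR quasi-likelihood, adjusted p = 0.00302). Without replicate 1 of S3 it was -1.57 with an adjusted p of 0.0346, and without replicate 1 or 2 of S2 the adjusted p was 0.0154 or 0.0125, each above the threshold of 0.01. It stood at 1383 and 1292 at S1 and at 3.79 and 4.33 at S4, so that S2 was its highest stage. Per length, its level at S2 was 47796 ± 1927 TPM (CPM corrected for effective length, SD, n = 2), above the 7890 ± 43.6 TPM of MtrunA17_Chr1g0185301 at the same stage, although its normalized CPM was lower. At S3 the order turned, with 8819 ± 3405 TPM against 14629 ± 353 TPM. The effective length, a single value for all libraries, was 118 nt for MtrunA17_Chr6g0458551 and 1435 nt for MtrunA17_Chr1g0185301. For the shorter transcript it lies far below the full 367 nt, so that its TPM depends strongly on this correction.

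**Figure D3:**
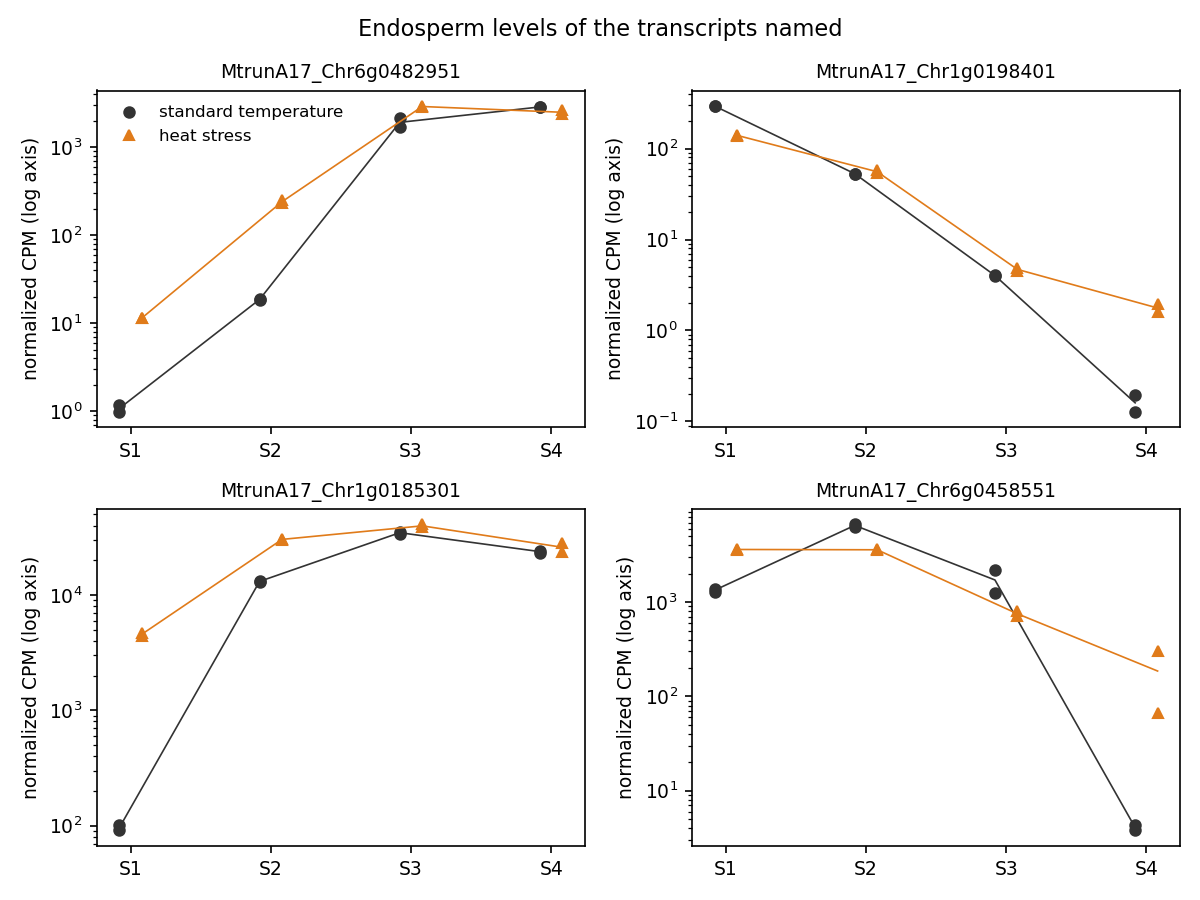
Normalized CPM on a log axis of the 4 transcripts described, in endosperm at S1 to S4, with circles for standard temperature, triangles for heat stress, one mark per library and lines through the means of 2 replicates. The transcripts on the left rise from S2 to S3 at standard temperature, from 18.5 and 18.8 to 2110 and 1702 for MtrunA17_Chr6g0482951, and those on the right fall, from 52.8 and 53.1 to 3.99 and 4.04 for MtrunA17_Chr1g0198401.

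Few transcripts passed between absent and present. With 0 counts in both S2 libraries and at least 10 in both S3 libraries there were 33 transcripts, of which 28 were called. These transcripts were chosen by counts in the libraries compared, and 34.8% of all transcripts tested were called. Of these 33, 27 also had at least 10 counts in both S4 libraries and 24 in both S3 libraries under heat stress. Only 9 of the 33 were at 0 in both S2 libraries under heat stress. The highest had 638 and 579 counts at S3, 2 and 5 at S1 and 2182 and 2138 at S4. It was a transcript of 426 nt on chromosome 7, at least 527-fold higher at S3 in normalized CPM when S2 is set to a floor of 3 counts over the group, or 403-fold on library size alone. In the opposite direction 65 transcripts had at least 10 counts in both S2 libraries and 0 in both S3 libraries, of which 55 were called. Of these 65, 45 had at least 10 counts in both S1 libraries and 31 in both S2 libraries under heat stress. Only 24 of the 65 were at 0 in both S3 libraries under heat stress. The highest, a transcript of 901 nt on chromosome 3, had 119 and 175 counts at S2 and 0 at S3, at least 75.7-fold lower in normalized CPM or 98.6-fold on library size alone, but 19 and 16 counts at S4. A count of 0 is a limit of depth and not absence, and reads without molecular identifiers let such limits cover counting error only.

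The stage of the highest mean level was read over S1 to S4 at standard temperature. Among the transcripts that rose from S2 to S3, 3514 (71.0%) were highest at S4 and 1241 (25.1%) at S3, and 3369 (68.1%) were lowest at S1. Among those that fell, 2452 (58.0%) were highest at S1 and 1720 (40.7%) at S2, and 3066 (72.6%) were lowest at S4. The mean rose from each stage to the next for 2403 (48.6%) of the transcripts that rose, against 17.5% of all transcripts tested. It fell from each stage to the next for 1852 (43.8%) of the transcripts that fell, against 18.0% of all. The choice by call fixes the middle step of this order, so that only S1 and S4 add to it.

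The change from S1 to S4 was tested on 4 libraries outside the contrast of S2 with S3. Both contrasts came from the same fit and shared its filter, scaling and estimate of spread, so that they are not fully independent. It called 18085 transcripts (68.5%), 8847 (33.5%) higher and 9238 (35.0%) lower at S4. Of the 4949 transcripts that rose from S2 to S3, 4348 (87.9%, which is 49.1% of those called higher from S1 to S4) were also higher at S4 than at S1, and 139 were lower. Of the 4226 that fell, 3427 (81.1%, and 37.1% of those called lower there) were also lower, and 180 were higher. Their median log2 fold change from S1 to S4 was 1.84 and -1.73, against -0.06 over all transcripts. The 139 and 180 transcripts with opposite calls depended on scaling: 46 and 75 of them had opposite calls in both steps on library size alone, where 341 of all S1 to S4 calls took the other direction.

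The same stages under heat stress gave a step on libraries outside the contrast, 5 days long instead of 10. These libraries too were part of the same fit and shared its filter, scaling and estimate of spread. There, 9708 transcripts (36.8%) were called, 5184 (19.6%) higher and 4524 (17.1%) lower at S3. Of the 4949 transcripts that rose at standard temperature, 3752 (75.8%, and 72.4% of those that rose under heat stress) rose, 10 fell and 1187 were not called. Of the 4226 that fell, 2940 (69.6%, and 65.0% of those that fell under heat stress) fell, 33 rose and 1253 were not called. Their median log2 fold change under heat stress was 0.79 and -0.89, against -0.02 over all transcripts. Across the 26400 transcripts, which are not independent replicates and share their libraries, the log2 fold changes of the steps had a Pearson correlation of 0.73.

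**Figure D4:**
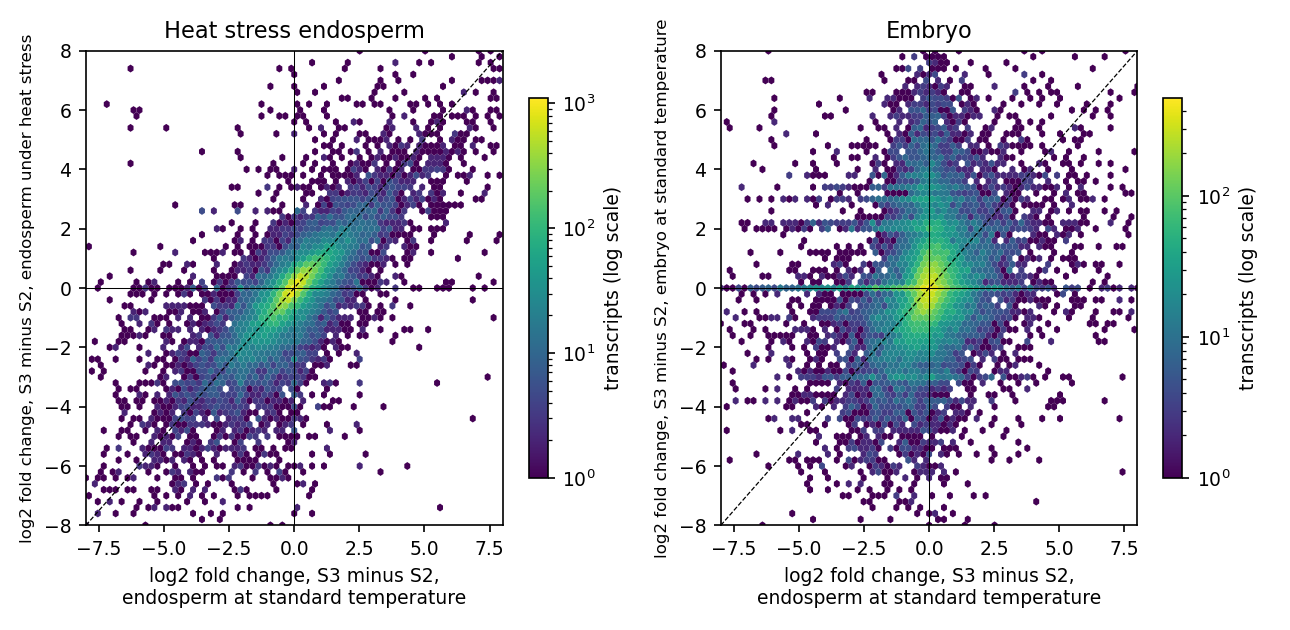
Log2 fold change from S2 to S3 in endosperm at standard temperature (horizontal) against the same step in endosperm under heat stress (left) and in embryo at standard temperature (right), as the number of transcripts per hexagon on a log colour scale, with the line of equal change dashed. The cloud follows the dashed line on the left (correlation 0.73) and much less on the right (0.24), and 84 and 103 transcripts lie outside the axes. Transcripts were filtered on endosperm counts and the embryo step is from another fit, so that the correlations are not like for like.

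The difference between the steps at the 2 temperatures was tested directly. It passed the threshold for 596 transcripts (2.26%), 229 (0.867%) with a more positive and 367 (1.39%) with a more negative step under heat stress. Of the 367, 224 had positive fitted steps at both temperatures, 86 a positive step at standard temperature and a negative one under heat stress, and 57 negative steps at both. The median step of these 367 was 1.77 at standard temperature and 0.51 under heat stress. Of the 229, 136 had a negative fitted step at standard temperature and a positive one under heat stress. The median steps of the 229 were -0.27 and 0.52. The count moved when a library was left out. It was 215 or 236 without S2 replicate 1 or 2 at standard temperature and 249 or 278 without S2 replicate 1 or 2 under heat stress. It was 528 or 786 without S3 replicate 1 or 2 at standard temperature and 250 or 212 without S3 replicate 1 or 2 under heat stress. The embryo transcripts defined at 5 times summed to 37516 and 43328 CPM in the S2 libraries under heat stress and to 18563 and 19933 CPM at S3, above the 1933 to 6601 CPM at standard temperature, and their part in the difference was not tested.

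The starting levels differed where the end levels were close. Over the 4949 transcripts that rose, the median log2 CPM at S2 was 3.36 in both libraries at standard temperature and 3.71 in both under heat stress. At S3 it was 4.51 and 4.45 against 4.64 in both. For the 4226 that fell, it was 4.17 and 4.16 at S2 against 3.99 and 3.95 under heat stress, and 3.10 and 3.12 at S3 against 3.02 and 2.98. The standard temperature libraries are those in which the transcripts were chosen, and these levels are a description.

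The rise of MtrunA17_Chr6g0482951 was smaller under heat stress, where it stood at 248 and 231 at S2 and at 2938 and 2831 normalized CPM at S3. The difference of the steps was -3.09 ± 0.16 (SE, log2, edgeR quasi-likelihood, adjusted p = 3.459e-07). For MtrunA17_Chr1g0185301 the S2 level under heat stress was already 30220 and 30387 normalized CPM, its step there of 0.39 was not called (adjusted p = 0.0221), and the steps differed by -1.01 ± 0.18 (adjusted p = 0.00516). For MtrunA17_Chr1g0198401 the heat stress values were 57.6 and 53.8 at S2 and 4.56 and 4.83 at S3. Its step there was -3.57, and the difference of 0.15 ± 0.13 did not pass (adjusted p = 0.703). For MtrunA17_Chr6g0458551 the values were 3646 and 3547 at S2 and 799 and 708 at S3, a step of -2.26, and the difference of -0.33 ± 0.62 did not pass either (adjusted p = 0.837). Of the transcripts named, both that rose thus differed in their step between temperatures, and for both that fell no difference was called.

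The embryo was sampled at the same stages and temperature. In a fit of endosperm and embryo together, 12042 of 27952 transcripts (43.1%) were called between S2 and S3 in embryo, 20.3% higher and 22.8% lower. The endosperm step in that fit was called for 6917 transcripts (24.7%), 12.2% higher and 12.5% lower. The counts that follow set embryo calls of that fit beside the endosperm calls of the fit of endosperm alone. Of the 4949 transcripts that rose in endosperm, 2143 (43.3%, and 37.8% of those that rose in embryo) also rose in embryo, 672 (13.6%) fell and 2134 were not called. Of the 4226 that fell in endosperm, 1647 (39.0%, and 25.9% of those that fell in embryo) also fell, 407 (9.63%) rose and 2172 were not called. These counts rest on TMM in both fits and were not made on library size alone. The log2 embryo steps of the transcripts named, in the order described, were -1.41, -0.12, -1.03 and -1.03 with TMM. On library size alone they were -0.41, 0.88, 0.02 and 0.06, so that the direction of an embryo step can depend on scaling. The Pearson correlation of the steps over 26400 transcripts was 0.24. These transcripts were filtered on endosperm libraries, so that some had few or no embryo counts, and the steps came from separate fits. The value is thus not like for like with the 0.73 between temperatures.

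The difference between the steps of endosperm and embryo passed for 6896 transcripts (24.7%), 3482 (12.5%) more positive in endosperm and 3414 (12.2%) more negative. Among the 3482, 1988 had a positive fitted step in endosperm and a negative one in embryo, and for 506 of these both steps were called. Among the 3414, 2197 had a negative step in endosperm and a positive one in embryo, and for 200 both were called. With library size as the only scaling the median of the difference was -1.42, and 14325 transcripts were called, 5.77% of them more positive in endosperm against 50.5% with TMM, so that the direction of a difference between the tissues depends on scaling. Of the transcripts named, MtrunA17_Chr6g0482951 differed by 8.01 ± 0.40 (SE, log2, edgeR quasi-likelihood, adjusted p = 1.798e-15), with a step of -1.41 in embryo. On library size alone that difference was 6.69 (adjusted p = 2.540e-16), with an embryo step of -0.41 that was not called (adjusted p = 0.0347), and the embryo CPM given above is on that scale. MtrunA17_Chr1g0185301 differed by 1.44 ± 0.35 (adjusted p = 0.00165), with an embryo step of -0.12. On library size alone it differed by 0.14 ± 0.21 (adjusted p = 0.620), with an embryo step of 0.88, from 10396 to 13165 CPM at S2 to 19612 to 25626 CPM at S3, so that its difference between tissues rests on the scaling. The differences of -2.77 ± 0.95 for MtrunA17_Chr1g0198401 and -0.98 ± 0.59 for MtrunA17_Chr6g0458551 did not pass (adjusted p = 0.0223 and 0.205), with few embryo counts behind the first. On library size alone they were -4.13 and -2.36 and both passed (adjusted p = 8.457e-04 and 0.00144).

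By chromosome, the share of transcripts called was similar except on chromosome 6. It was 30.9% of 1800 transcripts there and between 34.4% and 35.9% on the other 7 chromosomes. The gap lay in the higher calls, with 14.8% on chromosome 6 against 18.4% to 19.7% on the others, while lower calls were 16.1% on chromosome 6 and 15.1% to 16.6% on the others. No test of the difference between chromosomes was run.

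Plastid transcripts were lower in summed level at S3 on both scales. The 85 plastid transcripts of the table summed to 534 and 472 normalized CPM at S2 and to 426 and 414 at S3, without overlap. On library size alone the sums were 636 and 558 CPM against 383 and 379 CPM. Of 81 tested, 3 were called higher and 4 lower (8.64%), with a median log2 fold change of -0.35. The 72 mitochondrial transcripts summed to 101 and 118 normalized CPM at S2 and to 77.2 and 124 at S3, so that the stages overlapped. They did not on library size alone, with 120 and 140 CPM at S2 and 69.4 and 113 CPM at S3. Of 31 tested, 0 were called higher and 4 lower (12.9%), with a median of -0.36. Both shares were below the 34.8% over all transcripts. Plastid transcripts took only 0.064% and 0.056% of the counts at S2 and 0.038% in both S3 libraries. The part of the mRNA selection in these values was not tested. At standard temperature the plastid sum was 558 and 619 normalized CPM at S1 and 517 and 659 at S4, so that S4 overlapped S2. Under heat stress the plastid sum went from 941 and 816 normalized CPM at S2 to 773 and 639 at S3.

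**Figure D5:**
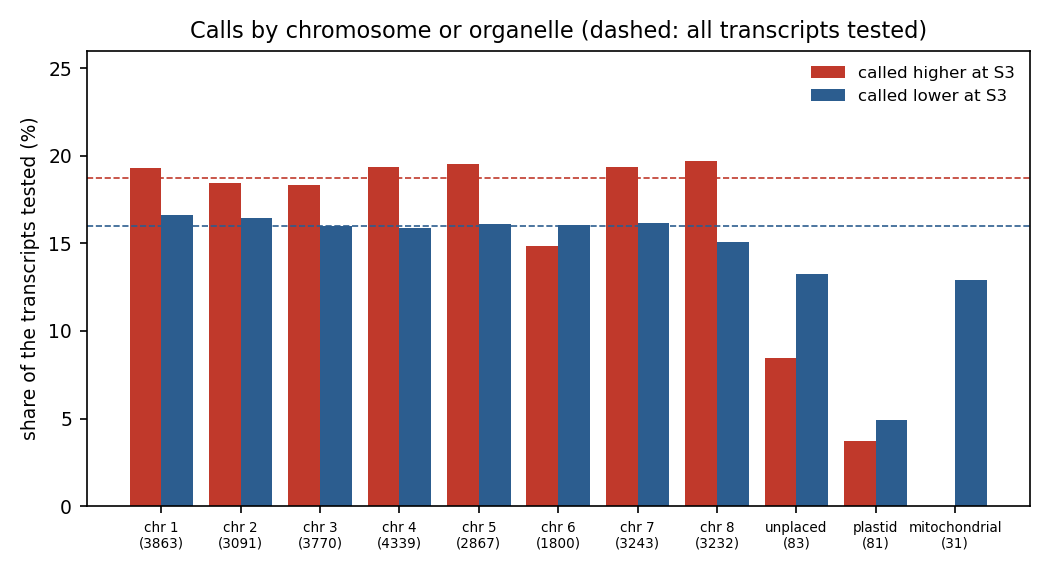
Share of the transcripts tested, in percent, that were called higher (red) or lower (blue) at S3, by chromosome, for unplaced sequences and for the organelles, with the number tested in parentheses and dashed lines at the shares over all transcripts (18.7% and 16.0%). Chromosome 6 has the lowest share of higher calls among the chromosomes (14.8%), and the mitochondrial transcripts have none.

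The share of calls was higher among abundant and long transcripts. In 5 equal groups of the transcripts by mean normalized CPM, 9.73%, 27.8%, 39.3%, 44.9% and 52.0% were called from the lowest to the highest. In 5 groups by length, from the shortest (123 to 932 nt) to the longest (2594 to 27277 nt), 24.2%, 32.1%, 37.1%, 39.0% and 41.5% were called. Among the shortest group 46.2% of the calls were higher, against 59.9% in the next. Of 16074 transcripts with whole counts in all 4 libraries 36.3% were called and of 10326 with counts that were not whole 32.3%.

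The lists defined by tissue moved unequally between S2 and S3. Of the 86 endosperm transcripts, 43 rose and 13 fell (65.1%), with a median log2 fold change of 0.41. Of 279 seed coat transcripts tested, 10 rose and 38 fell (17.2%), with a median of -0.19. Of the 24 embryo transcripts defined at 5 times, 3 rose and 0 fell (12.5%), with a median of 0.60. Over all transcripts 34.8% were called, with a median of -0.02. The endosperm list required a high level in endosperm under heat stress, and the other lists a lower level there than in their own tissue. Calls were more frequent at high level, with 52.0% in the highest group by level and 9.73% in the lowest. The part of level in these shares was not tested.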

How the data were processed

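Estimated counts per transcript of 48 libraries were deposited by the authors, who removed adapters and poor reads and quantified single-end reads on the M. truncatula A17 reference transcriptome with Salmon, named in the submitters' processing notes, without normalization or pooling. Salmon divides reads among similar transcripts, and 32.0% of the nonzero values in the 4 libraries were not whole. Counts were rounded for the tests. All columns were assigned by sample name, and groups follow tissue, stage and temperature in the labels.

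Tests used edgeR 4.0.16 (with limma 3.58.1 in R 4.3.3): filterByExpr (minimum count 10, minimum total count 15), TMM, and glmQLFit on all 16 endosperm libraries in 8 groups, or on 40 libraries for the comparison with embryo. Benjamini-Hochberg adjusted p-values below 0.01 were calls, the threshold of the study. Standard errors were derived from the F statistic. Normalized CPM is CPM on TMM-scaled library sizes, log2 CPM has a prior count of 2, and TPM was computed from the effective lengths in the table.

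By the rule for named transcripts, the smallest adjusted p and the highest mean normalized CPM in each direction were taken among calls with an absolute log2 fold change of at least 1, without overlap for the first. Transcripts, lists and tests were chosen with earlier results of these data known. The endosperm and embryo lists required at least 20 CPM in every heat stress library of the tissue at S2 and S3. The seed coat list required it in all 8 seed coat libraries. The alternatives were RLE or library size scaling, filters that kept all transcripts or only those with 10 counts per library throughout, another threshold, DESeq2 1.42.0, a replicate block, fewer libraries, unrounded or whole counts only, and each library left out. Scripts were tested on simulated counts. Sequences and gene names were not used here.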

Additional observations from a re-analysis of the deposited data

Results flagged for a closer look

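Differences between groups in the step from S2 to S3 were tested as contrasts of log2 fold changes with edgeR's quasi-likelihood test. Between heat stress and standard temperature in endosperm, 596 transcripts differed, and between endosperm and embryo at standard temperature, 6896 differed. MtrunA17_Chr6g0482951 differed by -3.09 between heat stress and standard temperature and by 8.01 between endosperm and embryo. MtrunA17_Chr1g0185301 differed by -1.01 between the temperatures and by 1.44 between the tissues, but on library size alone by 0.14 between the tissues, which did not pass (adjusted p = 0.620). On that scale MtrunA17_Chr6g0482951 differed by 6.69 between the tissues. The temperatures also differ in the days between S2 and S3, 5 under heat stress and 10 at standard temperature, so that time and temperature cannot be told apart.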

How the results depend on the processing

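The count of 9175 calls between S2 and S3 was 4603 with an absolute log2 fold change of at least 1 also required, and 6062 where only the 16074 transcripts with whole counts were tested. It was 12406 at an adjusted p below 0.05, 8099 with DESeq2, 6807 from the 4 libraries alone and 6510 to 7760 with each library left out, and none of these alternatives turned one of the 9175 calls around. The count of 596 transcripts whose step differed between temperatures was 212 to 786 with each library left out and 894 with DESeq2. The lone sample left in a group is then assumed to vary like the other groups. The count of 6896 between tissues was 5229 to 9216 with each library left out (9216 without embryo S3 replicate 2) and 14325 with library size only. Library size only gave 24.97% higher calls under heat stress and 29.0% from S1 to S4.

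The deviations of same-numbered samples at S2 and S3 had a correlation of -0.01 at standard temperature and 0.03 under heat stress. With 2 replicates in a group, such a value cannot show whether samples were paired. With a replicate block, 9054 transcripts were called between S2 and S3, 9487 under heat stress, 17944 from S1 to S4, 564 between temperatures and 6701 between tissues. Changes that were not called are not shown to be absent, least of all at the lowest levels, where 9.73% were called.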

Other observations

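Transcripts with consecutive identifiers on a chromosome often changed in the same direction. Of 2604 such pairs in which both were called between S2 and S3, 1710 (65.7%) had the same direction, against 50.3% over all pairs of calls, and among 1224 pairs with whole counts in both, 766 (62.6%) did. Runs of at least 4 consecutive identifiers called higher numbered 43, with 187 transcripts. The longest held 7 transcripts on chromosome 2 with log2 fold changes of 2.90 to 7.82, of which 3 had whole counts. Runs of at least 4 called lower numbered 26, with 107 transcripts, and the longest held 5. Over all transcripts tested 18.7% were called higher and 16.0% lower, and the number of runs these shares alone would give was not computed. Neighbouring transcripts can be similar copies or overlap, and the part of shared reads was not tested beyond the pairs with whole counts.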
